A study of Homo sapiens with 36 samples.

Results

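The regions described here are the PHF19 peaks of replicate 2 in control DU145 cells over which no H3K27me3 peak was called. They were chosen by measured positions: a peak of the second PHF19 list was taken when it shared no base with a peak of either H3K27me3 list from the same control cells. Of the 14218 peaks in that list, 8972 (63.1%) met this rule, and they are called unmarked peaks. Of the remaining peaks, 1979 were overlapped by a peak of 1 H3K27me3 list and 3267 by peaks of both. The first H3K27me3 list overlapped 4799 of the 14218 peaks (33.8%) and the second 3714 (26.1%). These shares set who was taken, so nothing is read from them. A position with no called peak is not shown to lack the histone mark.

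The study asked where PHF19 sits on the chromatin of prostate cancer cells and what its loss does to Polycomb proteins. ChIP-seq was done in DU145, a line derived from a brain metastasis of prostate adenocarcinoma. Control cells (shCTR) carried a lentiviral control hairpin, and shPHF19L#4 cells carried a hairpin against PHF19L, the long isoform of PHF19. For each antibody the lists of 2 replicates were used: PHF19, EZH2 and SUZ12 in shCTR cells, and H3K27me3 and MTF2 in shCTR and in shPHF19L#4 cells. Each PHF19 peak of replicate 2 carries a MACS score, a value of the peak caller that grows with the evidence for a peak over its control. How deeply each library was sequenced cannot be read from these lists.

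PRC2 is the Polycomb complex that methylates lysine 27 of histone H3, with EZH2 as its catalytic subunit and SUZ12 as part of its core. PHF19 and MTF2 are Polycomb-like proteins, alternative partners of that core, and this family is known to bind CpG-rich DNA. A PHF19 peak without the mark is therefore a candidate either for binding apart from PRC2 activity or for background of the ChIP, and which of these holds for a given peak was not tested.

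The sequences at the middle of 5 unmarked peaks show how different these regions were. They are printed from the forward strand of GRCh37 (hg19), 300 bp each, with every CpG in capitals, and none overlapped an annotated exon. The first pair are from the peaks with the highest scores, an intron of IGF1R (chr15:99193628-99193927) and an intron of RUNX1 (chr21:36263257-36263556). The next is from the peak with the highest score outside promoters, which lay outside protein-coding genes, nearest to the start site of TTLL10 (chr1:1099296-1099595). The last pair are from peaks whose score was the median, an intergenic peak nearest to YJU2B (chr19:13807326-13807625) and a peak in an intron of MGAT5 (chr2:135068382-135068681).
IGF1R: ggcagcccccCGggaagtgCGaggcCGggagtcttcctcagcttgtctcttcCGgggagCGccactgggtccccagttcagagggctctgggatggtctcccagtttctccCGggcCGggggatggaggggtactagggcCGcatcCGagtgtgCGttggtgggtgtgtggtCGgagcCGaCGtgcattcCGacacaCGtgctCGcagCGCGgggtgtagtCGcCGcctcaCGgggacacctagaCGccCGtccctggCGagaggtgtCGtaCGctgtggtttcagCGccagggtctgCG
RUNX1: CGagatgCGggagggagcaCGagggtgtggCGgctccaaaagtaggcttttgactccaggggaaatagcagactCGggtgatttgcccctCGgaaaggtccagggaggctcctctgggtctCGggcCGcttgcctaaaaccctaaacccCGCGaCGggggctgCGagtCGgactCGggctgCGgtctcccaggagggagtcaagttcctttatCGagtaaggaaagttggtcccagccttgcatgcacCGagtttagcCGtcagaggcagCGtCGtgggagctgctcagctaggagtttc
TTLL10: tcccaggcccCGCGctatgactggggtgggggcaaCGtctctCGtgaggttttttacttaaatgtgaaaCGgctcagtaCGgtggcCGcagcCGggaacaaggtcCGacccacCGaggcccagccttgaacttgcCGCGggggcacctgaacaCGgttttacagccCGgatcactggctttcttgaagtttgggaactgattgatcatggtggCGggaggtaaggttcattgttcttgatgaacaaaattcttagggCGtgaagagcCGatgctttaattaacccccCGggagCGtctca
YJU2B: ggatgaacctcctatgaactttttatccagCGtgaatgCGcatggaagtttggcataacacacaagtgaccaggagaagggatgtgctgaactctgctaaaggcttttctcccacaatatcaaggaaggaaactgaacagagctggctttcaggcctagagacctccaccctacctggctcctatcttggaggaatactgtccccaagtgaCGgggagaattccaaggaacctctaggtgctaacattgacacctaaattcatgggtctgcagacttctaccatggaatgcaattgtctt
MGAT5: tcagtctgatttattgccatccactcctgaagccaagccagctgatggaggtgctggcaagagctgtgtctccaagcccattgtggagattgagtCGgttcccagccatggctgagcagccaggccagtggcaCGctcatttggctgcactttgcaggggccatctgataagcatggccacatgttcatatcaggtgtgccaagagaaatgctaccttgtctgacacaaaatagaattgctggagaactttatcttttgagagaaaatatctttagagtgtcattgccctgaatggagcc

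The windows at IGF1R, RUNX1 and TTLL10 held 28, 20 and 19 CpG. Those near YJU2B and in MGAT5 held 3 and 2. Strong peaks were not always dense in CpG, since the window in an intron of POM121L2, whose peak scored 418, held 6. The windows are examples, so no CpG density of the whole class is read from them.

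Most unmarked peaks were weak calls. Their median MACS score was 58.8, with quartiles of 53.5 and 69.8, and the lowest score in the list was 50. The median was 64.4 where 1 H3K27me3 list overlapped the peak and 99.8 where both did. Of the unmarked peaks, 8526 scored under 100, and 63 scored 200 or more. Their median width was 818 bp, against 1289 bp for peaks with H3K27me3 in both lists, and together they covered 8.84 Mb of the genome. The scores and the rule come from the same list, so they are given as a description, and no test was run on them.

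**Figure D1:**
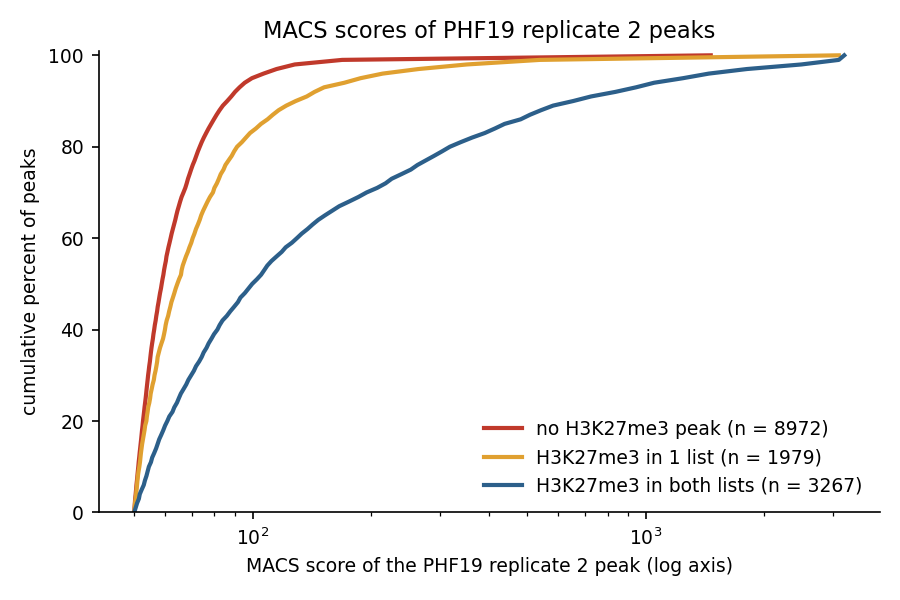
Cumulative percent of PHF19 replicate 2 peaks (vertical axis) against their MACS score (horizontal log axis), with a line for each class of peaks by H3K27me3. At 50 percent the line of the unmarked peaks is at a score of 58.8 and that of the peaks with H3K27me3 in both lists at 99.8.

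The share of peaks without H3K27me3 was lower in each higher band of the score. It was 72.2% of the 11810 peaks that scored under 100, 29.7% of the 1290 from 100 to under 200, and 9.47% of the 528 from 200 to under 400. Of 306 peaks from 400 to under 800, 10 were unmarked, and of 284 peaks that scored 800 or more, 3 were. These 3 lay at IGF1R, which encodes the receptor of insulin-like growth factor 1, at RUNX1, a transcription factor of blood development, and at C17orf58. The unmarked class thus held a large number of weak calls and a small number of strong ones.

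**Figure D2:**
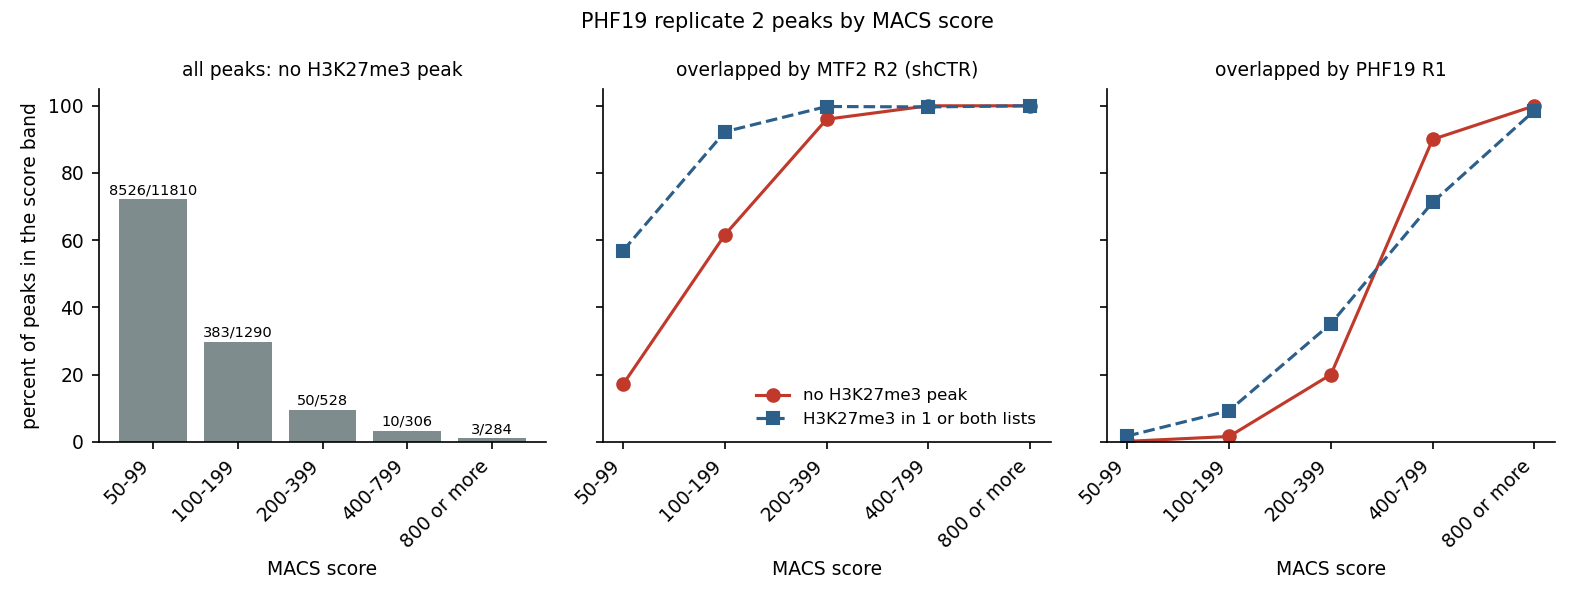
Left, percent of all PHF19 replicate 2 peaks in each MACS score band that had no H3K27me3 peak, with the counts above the bars. Middle and right, percent of unmarked peaks (circles) and of peaks with H3K27me3 (squares) in each band that were overlapped by a peak of MTF2 or of PHF19 replicate 1, and of the 13 unmarked peaks that scored 400 or more these lists overlapped 13 and 12.

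The strongest unmarked peaks mostly lay at promoters rich in CpG. The highest score, 1464, belonged to a peak at the IGF1R promoter (chr15:99192108-99195455), whose midpoint lay in an intron 2014 bp downstream of the nearest start site. The peak at RUNX1 (chr21:36262327-36264493) scored 1209, and that at C17orf58 (chr17:65990654-65992975), which spans a start site, scored 861. The next, with a score of 779, lay between genes on chromosome 1 (chr1:1098156-1100735), 9814 bp from the start site of TTLL10, of the tubulin tyrosine ligase-like family. The annotated gene of any kind nearest to its midpoint was MIR200B, 3038 bp away, a microRNA gene known for keeping ZEB factors low in epithelial cells.

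The other peaks among the 10 with the highest scores overlapped promoters of genes with varied roles. They lay at MYO6, an unconventional myosin (score 648), C21orf91 (565) and BCAT1, the cytosolic aminotransferase of branched-chain amino acids (542). The last were at GJA3, a gap junction protein of the lens (490.2), MARVELD2, a protein of tight junctions (469.8), and SESN3, a stress-induced sestrin (439). Of these 10 peaks, 9 overlapped a promoter, 7 held a start site, and 8 had more than 6 CpG per 100 bp. Each was overlapped by a PHF19 peak of replicate 1, with 49 to 158 tags, and by an MTF2 peak of replicate 2 in shCTR cells, whereas 0 met an MTF2 peak of replicate 1. Over all replicate 2 PHF19 peaks these shares were 5.87%, 38.8% and 9.74%. Peaks with H3K27me3 that scored 400 to under 800 met PHF19 replicate 1 in 71.3% and MTF2 replicate 2 in 99.7%. At 800 or more these shares were 98.6% and 100%, so such overlap was not particular to the unmarked peaks. An H3K27me3 peak in shPHF19L#4 cells covered part of 8 of the 10 unmarked peaks in replicate 2 and of 1 in replicate 1, against 43.0% and 32.0% of all replicate 2 PHF19 peaks.

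Promoters of protein-coding genes took a smaller share of the unmarked peaks than of all peaks. A promoter was taken as the 2500 bp on either side of a start site of a protein-coding transcript. Of the unmarked peaks, 1258 (14.0%, 95% Wilson interval 13.3 to 14.8) overlapped a promoter, 3451 (38.5%) lay in gene bodies and 4263 (47.5%) between genes. Promoters held 22.0% of all replicate 2 peaks, 20.9% of those with H3K27me3 in 1 list and 44.8% of those with H3K27me3 in both. With start sites of all annotated genes in place of protein-coding ones, the share of unmarked peaks was 29.6%. A start site of a protein-coding transcript lay within 488 unmarked peaks (5.44%). The midpoint of the unmarked peaks was a median of 30437 bp from the nearest start site, against 5450 bp for the peaks with H3K27me3 in both lists. The interval covers counting error only, and peaks of a single list are not replicates.

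The promoter share among unmarked peaks rose with the score. It was 12.8% for scores under 100, 32.4% from 100 to under 200 and 62.0% from 200 to under 400. In peaks with H3K27me3 of the same bands it was 20.5%, 46.1% and 70.1%. In the higher bands 7 of 10 and 3 of 3 unmarked peaks overlapped a promoter, against 76.7% and 79.7% with H3K27me3. Unmarked peaks thus had the lower promoter share in all but the highest band, and the difference was not tested.

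High-scoring unmarked peaks away from promoters lay in unlike places, and not all of the highest are listed here. Beside the peak near MIR200B, a peak of 418 lay in an intron of POM121L2 (chr6:27261489-27264802), 147 bp from an H3K27me3 peak of shCTR cells. A peak of 382 on chromosome 1 (chr1:142535347-142539886) lay 1230264 bp from the nearest protein-coding start site, that of PPIAL4G, in sequence with unknown bases. A peak of 375 lay on chromosome Y (chrY:58990741-58997680). All of these overlapped an MTF2 peak of replicate 2, while a PHF19 peak of replicate 1 overlapped those nearest to TTLL10 and in POM121L2, with 89 and 29 tags.

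CpG density separated the unmarked peaks by position. Polycomb proteins of mammals are known to gather at CpG islands, so the density of CpG tells how far a region has that property. The median over the unmarked peaks was 1.18 CpG per 100 bp, and 675 peaks (7.52%) had 4 or more. By position the median was 2.53 at promoters, 1.22 in gene bodies and 1.02 between genes, and it was 5.26 in the peaks that held a start site. Peaks with H3K27me3 in 1 list had the same median of 1.18, and those with H3K27me3 in both lists had 2.997, and 42.2% of the latter reached 4 per 100 bp.

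The same order held within promoters, where the median was 2.53 for unmarked peaks and 5.63 for peaks with H3K27me3 in both lists. Among unmarked peaks the median CpG density was 1.16 for scores under 100, 1.55 from 100 to under 200 and 5.20 from 200 to under 400. Peaks with H3K27me3 had medians of 1.19, 3.68 and 5.73 in these bands. In the higher bands, with 10 and 3 unmarked peaks, the medians were 6.70 and 6.37, against 5.79 and 5.48 with H3K27me3. The weakest calls of either kind were therefore poor in CpG and the strongest rich in it.

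**Figure D3:**
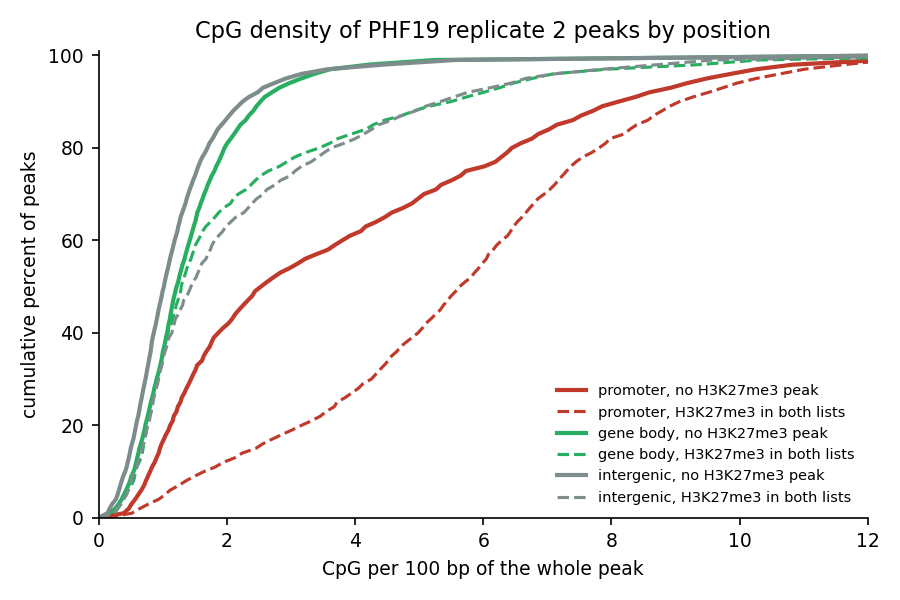
Cumulative percent of PHF19 replicate 2 peaks (vertical axis) against the number of CpG per 100 bp of the peak (horizontal axis), by position, for unmarked peaks (solid lines) and peaks with H3K27me3 in both lists (dashed lines). At promoters the median is 2.53 for the solid line and 5.63 for the dashed line.

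Short motifs were searched on both strands of the 300 bp at the midpoint of each unmarked peak and of 78564 windows at start sites of protein-coding transcripts. GGGCGG, the core bound by SP and KLF factors, was in 9.41% of the unmarked windows, in 28.0% of those at promoters and in 51.5% of the start site windows. In peaks with H3K27me3 in both lists it was in 28.8% of all windows and in 45.1% of those at promoters. TGANTCA, the letters bound by AP-1, was in 9.24% of the unmarked windows, in 6.21% of those with H3K27me3 in both lists and in 5.51% of the start site windows. By position it was in 6.28% of unmarked windows at promoters, 9.68% in gene bodies and 9.76% between genes. In promoter windows of peaks with H3K27me3 in both lists it was in 3.90%.

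Letters of several factors known from promoters were rarer in the unmarked windows than at start sites, and they were also rarer in the windows of peaks with H3K27me3 in both lists. CCGGAAG, bound by ETS factors, was in 1.72% of them and in 11.7% of the start site windows, GCATGCGC of NRF1 in 0.446% and 3.01%, and TGACGTCA of CREB factors in 0.212% and 1.85%. AAGATGGC of YY1 was in 1.72% and 3.62%, and CACGTG, an E-box, in 4.94% and 7.08%. In peaks with H3K27me3 in both lists these shares were 2.51% for ETS, 0.337% for NRF1, 0.153% for CREB, 1.38% for YY1 and 4.96% for the E-box, so low shares were not a trait of the unmarked peaks. The short CCAAT of NF-Y was in 34.3% of the unmarked windows and 31.2% of the start site windows, and TGTTTAC of forkhead factors in 2.99% and 2.46%. A match is a description of the letters, and nothing about binding of these factors is drawn from it.

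Few unmarked peaks were called in both PHF19 replicates. A PHF19 peak of replicate 1 overlapped 38 of the 8972 (0.424%, 95% Wilson interval 0.309 to 0.581), against 5.87% of all replicate 2 peaks. With an H3K27me3 list left out of the rule it was 0.609% or 0.839%, outside that interval. The share was 3.39% where 1 H3K27me3 list overlapped the peak and 22.3% where both did. Seen from the other list, 37 of the 1072 peaks of replicate 1 (3.45%) met an unmarked peak. The lists differ much in length, so both shares are given, and the tags of replicate 1 and the scores of replicate 2 are on different scales.

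The 38 peaks with replicate 1 support mostly had higher scores than the rest of the unmarked class, although 10 of them scored under 100. Their median score was 242, from 51.4 to 1464, and replicate 1 gave them 26 to 450 tags with a median of 50, close to the median of 53 over the whole replicate 1 list. All of the 10 unmarked peaks with the highest scores were among them, and 24 of the highest 100. Their median CpG density was 5.89 per 100 bp, and 22 of them overlapped a promoter. An MTF2 peak of replicate 2 overlapped 34 of the 38 and an MTF2 peak of replicate 1 overlapped 4, while 5 met an EZH2 or SUZ12 peak and 23 met an H3K27me3 peak in shPHF19L#4 cells. Over all replicate 2 PHF19 peaks these shares were 38.8%, 9.74%, 10.4% and 44.3%, so the counts with MTF2 replicate 1 and with EZH2 or SUZ12 were near those of all peaks.

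Replicate 1 support rose with the score in unmarked and marked peaks alike. It was 0.117% of the unmarked peaks with scores under 100 and 1.57% of those from 100 to under 200. It was 10 of 50 from 200 to under 400, and 9 of 10 and 3 of 3 in the higher bands. For peaks with H3K27me3 it was 1.71%, 9.26%, 35.1%, 71.3% and 98.6% in the same order. Most unmarked peaks therefore fell in the lowest band, where few peaks of either kind had replicate 1 support. In that band the share was still lower for unmarked peaks, at 0.117% against 1.71%, and the difference was not tested.

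MTF2 peaks were common over unmarked peaks in replicate 2 and rare in replicate 1. In shCTR cells, replicate 2 of MTF2 overlapped 1760 unmarked peaks (19.6%), against 38.8% of all PHF19 replicate 2 peaks. Replicate 1 overlapped 33 (0.368%), against 9.74% of all, and both replicates overlapped 16 (0.178%, 95% Wilson interval 0.110 to 0.290), against 9.39% of all. With an H3K27me3 list left out of the rule the share with both was 0.648% or 0.914%, outside that interval. The MTF2 lists held 2516 and 32254 peaks, and the longer list gave nearly all of the overlap. The MTF2 peaks that met an unmarked peak in replicate 2 had a median score of 91.0, against 826 for those that met a peak with H3K27me3 in both lists.

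The share of unmarked peaks with MTF2 was higher at promoters and at high PHF19 scores, although 1463 of the 1760 overlapped peaks scored under 100, and 525 lay in gene bodies and 593 between genes. Replicate 2 of MTF2 overlapped 642 (51.0%) of the unmarked promoter peaks, 15.2% of those in gene bodies and 13.9% of those between genes. By score, it overlapped 17.2%, 61.6% and 96.0% of the unmarked peaks with scores under 100, from 100 to under 200 and from 200 to under 400. Peaks with H3K27me3 had 56.9%, 92.3% and 99.8% in the same bands. At a like PHF19 score the unmarked peaks thus met MTF2 less often in the lower bands, and this was not tested.

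The unmarked peaks called in both MTF2 replicates with the highest PHF19 scores included a Polycomb gene. The first was at BMI1, a subunit of PRC1 (chr10:22610543-22611924), with a PHF19 score of 352 and 35 tags in replicate 1. It was followed by MAT2B, a regulator of the enzyme that makes S-adenosylmethionine, with a score of 314, and by a peak between genes nearest to the forkhead gene FOXD4L5, with 298. TMEM255A, with 202, and PRRG4, with 131, were next. The peaks near FOXD4L5 and at TMEM255A also had tags in replicate 1, 41 and 29.

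In shPHF19L#4 cells, where PHF19L was depleted, the MTF2 lists overlapped more unmarked peaks in replicate 1 and fewer in replicate 2. Replicate 1 overlapped 115 (1.28%), against 16.8% of all replicate 2 PHF19 peaks, and replicate 2 overlapped 1519 (16.9%), against 40.3% of all. Both lists overlapped 102 (1.14%), against 16.6% of all. The counts of overlapped peaks thus did not go in a common direction against shCTR cells. In replicate 2 the MTF2 peaks that met an unmarked peak had a median score of 91.0 in shCTR and 123 in shPHF19L#4 cells. At promoters these medians were 185 and 362, and over all replicate 2 PHF19 peaks 257 and 696. The sets of overlapped peaks differ between the cells, and the difference was not tested. The MTF2 lists held 4216 and 34623 peaks in shPHF19L#4 cells, against 2516 and 32254 in shCTR cells. In replicate 2 the unmarked peaks overlapped were 641 at promoters, 371 in gene bodies and 507 between genes. In shCTR cells these counts were 642, 525 and 593, so the lower number came from outside promoters.

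Peaks of the PRC2 core were rare over unmarked peaks. EZH2 overlapped 16 unmarked peaks in replicate 1 and 20 in replicate 2, against 5.57% and 8.36% of all replicate 2 PHF19 peaks. SUZ12 overlapped 21 in replicate 1 and 0 in replicate 2, against 1.27% and 1.48% of all. The EZH2 lists held 2060 and 1236 peaks and the SUZ12 lists 1523 and 232. With so short a list, the overlap of 0 does not show that SUZ12 was absent. Any of these 4 lists overlapped 51 unmarked peaks (0.568%), against 10.4% of all and 38.8% of the peaks with H3K27me3 in both lists. It was 1.26% or 1.39% with an H3K27me3 list left out of the rule, and 0.223% without replicate 1 of EZH2 and SUZ12. Of the 20 unmarked peaks that met EZH2 of replicate 2, 18 overlapped a promoter. Of the 16 that met EZH2 of replicate 1, 1 did, at IGF1R. The whole EZH2 lists differed in the same direction, with 74.4% of replicate 2 peaks and 26.4% of replicate 1 peaks at promoters.

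**Figure D4:**
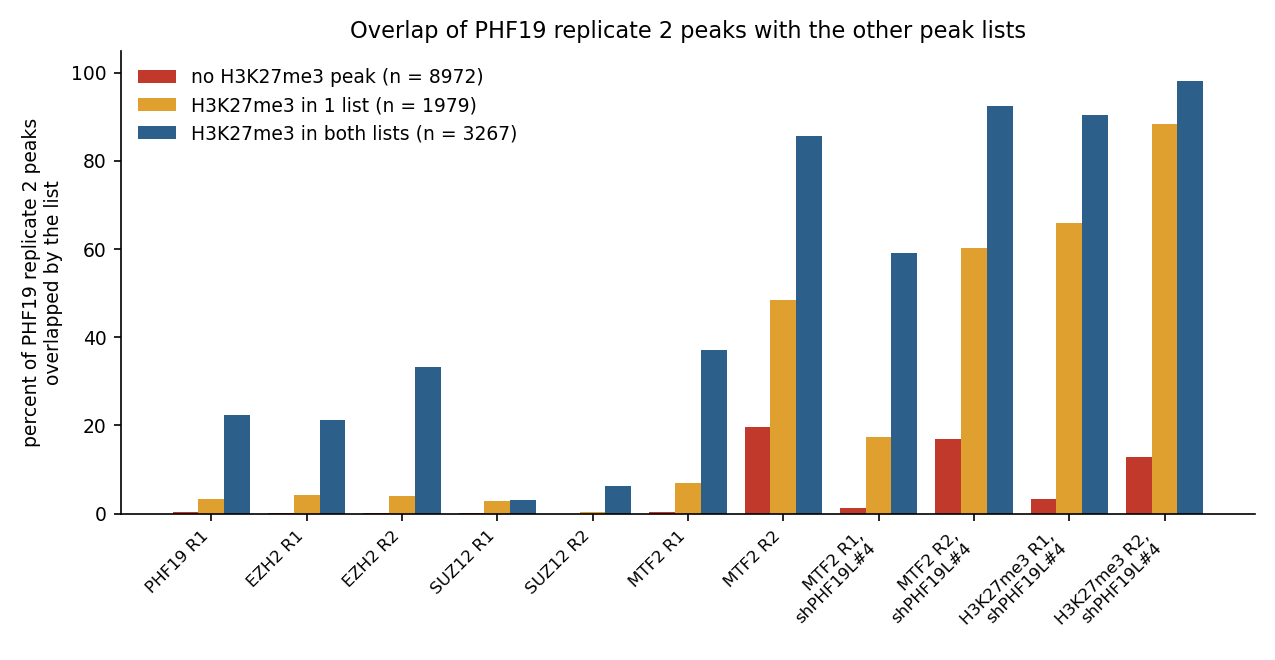
Percent of PHF19 replicate 2 peaks (vertical axis) overlapped by each of the other peak lists, for unmarked peaks and for peaks with H3K27me3 in 1 or in both lists, with R1 and R2 for the replicates and shCTR cells unless named. The bar of the unmarked peaks is the lowest for every list, from 0 for SUZ12 R2 to 19.6% for MTF2 R2. The SUZ12 R2 list held 232 peaks and the MTF2 R2 list of shCTR cells 32254.

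Some unmarked peaks had an H3K27me3 peak in cells depleted of PHF19L. The H3K27me3 lists of shPHF19L#4 cells overlapped 299 unmarked peaks (3.33%) in replicate 1 and 1161 (12.9%) in replicate 2, against 32.0% and 43.0% of all replicate 2 PHF19 peaks. Either list overlapped 1213 (13.5%), against 44.3% of all, and both overlapped 247 (2.75%). Either list overlapped 25% with replicate 1 of H3K27me3 in shCTR cells left out of the rule, and 17.3% with replicate 2 left out. At promoters either list overlapped 341 (27.1%), in gene bodies 10.3% and between genes 12.2%. The lists of shPHF19L#4 cells held 35128 and 57026 peaks, and those of shCTR cells 39254 and 15994. The larger overlap in replicate 2 thus came with a longer list, and the part of list length in it was not tested.

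The share of such peaks was lower at each greater distance from H3K27me3 of control cells. Of the unmarked peaks less than 1000 bp from an H3K27me3 peak of shCTR cells, 68.4% met one in shPHF19L#4 cells, against 36.1% of the 861 peaks at 1000 to 5000 bp. The share was 14.5% of the 2719 peaks at 5000 to 50000 bp, 5.23% of the 4037 at 50000 to 500000 bp and 2.41% of the 956 farther away. The median distance of an unmarked peak to the nearest H3K27me3 peak of shCTR cells was 68.5 kb.

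Just inside the rule, an intergenic peak nearest to BLNK touched an H3K27me3 peak without sharing a base, and peaks nearest to the start sites of UBE2QL1 and KCNK9 were 1 bp away. Just outside it, peaks nearest to ADO, RPL38 and RGS6 were left out for overlaps of 1, 3 and 5 bp.

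The largest group of unmarked peaks was seen in no other list used here. Of the 8972, 6164 (68.7%) were overlapped by none of the PHF19 replicate 1 list, the EZH2 and SUZ12 lists of shCTR cells, the MTF2 lists of shCTR and shPHF19L#4 cells or the H3K27me3 lists of shPHF19L#4 cells, against 43.9% of all replicate 2 peaks. The H3K27me3 lists of shCTR cells do not enter this count. It held for 77 of the peaks with H3K27me3 in 1 list and for 2 of those with both. The 6164 peaks had a median score of 57.2 and a median CpG density of 1.08 per 100 bp, and 98.3% of them scored under 100. At promoters 38.3% of unmarked peaks were of this kind, in gene bodies 74.6% and between genes 72.9%.

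Unmarked peaks lay at the promoters of 1244 protein-coding genes, 6.28% of the 19821 in the annotation. Of these genes, 95 also had a PHF19 replicate 2 peak with H3K27me3 at a promoter, and 194 (15.6%) had an H3K27me3 peak somewhere in a promoter window, against 17.0% of all protein-coding genes. An MTF2 peak of replicate 2 lay at a promoter of 938 of them (75.4%), against 41.1% of all, and an MTF2 peak of replicate 1 at 50 (4.02%), against 4.49% of all. Gene lists were read against the 6.28%, with no enrichment test, since the peaks were chosen with measured values.

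Polycomb genes and their classic targets were among the genes with unmarked peaks. Among genes of PRC1 proteins, unmarked peaks lay at BMI1 (352), at KDM2B (73.2), which binds unmethylated CpG, and at the chromodomain gene CBX6 (60.8). Of 14 genes of PRC2 and its partners, PHF19 itself was the 1 with an unmarked peak, with a score of 69.2 in an intron (chr9:123640460-123641695). Of 39 HOX genes, which set position along the body axis, 8 had an unmarked peak, with scores of 241 at HOXB9, 185 at HOXA11 and 84.6 at HOXA2, and 9 had a peak with H3K27me3. The peaks at HOXB9 and HOXA11 lay 4387 and 5895 bp from H3K27me3 of shCTR cells and met an H3K27me3 peak of replicate 2 in shPHF19L#4 cells.

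Other developmental regulators stood with the marked peaks. Of 135 such genes, 54 (40.0%) had a PHF19 replicate 2 peak with H3K27me3 and 9 (6.67%) an unmarked one. Over all protein-coding genes these shares were 7.99% and 6.28%, so the unmarked share was close to that of all genes. The unmarked ones with the highest scores were at NKX2-1, a regulator of lung and thyroid (116), and at DLX2 of the forebrain (97.1). The peak at NKX2-1 was less than 1000 bp from an H3K27me3 peak, so it lay beside marked chromatin.

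Immediate early genes, which respond within minutes to growth factors, had both unmarked and marked peaks at higher shares than all genes. The differences were not tested. Of 21 AP-1 and immediate early genes, 5 (23.8%) had an unmarked peak, against 6.28% of all genes. A peak with H3K27me3 was at 4 of them (19.0%), against 7.99% of all genes. DUSP6, the phosphatase that restrains ERK, had a score of 306 over its start site, FOS had 68.1 and EGR1 67.8, and the others were JUND and MYC. The peak at DUSP6 lay 357236 bp from the nearest H3K27me3 peak. Of 34 genes of replication and the cell cycle, 2 had an unmarked peak, CCND1, which encodes cyclin D1 (79.7), and AURKB, a mitotic kinase (52.7).

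In lists made up mostly of genes that nearly all cells use, 0 to 5.08% of the genes had unmarked peaks, against 6.28% of all genes. They lay at promoters of 3 of 88 cytosolic ribosomal protein genes, RPL10A (71.1), RPL19 (57.8) and RPS26 (54.4), and at 0 of 78 mitochondrial ones. Of 39 proteasome genes 1 had an unmarked peak, PSMD8 (54.0), and of 56 translation initiation genes 1, EIF4E3 (88.6). Of 98 respiratory chain genes 3 did, COX6B2 (59.0), COX7A2 (54.2) and NDUFAF6 (53.6), and of 59 splicing genes 3, SRSF5 (98.8), HNRNPM (53.2) and U2AF2 (51.0). Most of these scores were near the floor of the list.

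Histone, stress and zinc finger genes are given by count, and none of these lists is read as differing from the 6.28% of all genes. A single unmarked peak of 225 covered promoters of both H1-5 and H2AC16, and a peak of 171 lay at H1-3, which made 3 of 64 replication-dependent histone genes. Of 20 heat shock and stress genes 2 had an unmarked peak, ASNS, asparagine synthetase (59.5), and HSPB1, a small heat shock protein (50.5). Of 512 zinc finger genes 24 (4.69%) had an unmarked peak, with the highest scores at ZNF608 (114), ZNF516 (109) and ZNF518A (103). The peak at ZNF608 lay 146 bp from H3K27me3 and was covered in part by H3K27me3 peaks of both replicates in shPHF19L#4 cells.

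Of 50 genes that the study's text names, 6 had an unmarked peak at a promoter and 22 a peak with H3K27me3. Over all protein-coding genes these shares were 6.28% and 7.99%. The study named several of the 50 as PHF19L targets by ChIP-seq in these cells, so nothing is read from the marked count. HMGA2, an architectural chromatin protein of invasive cells, had an unmarked peak of 151 (chr12:66216685-66219428) that was also called in PHF19 replicate 1, with 52 tags, and in EZH2 replicate 2. EPHB3, an ephrin receptor, had a peak of 109.8 (chr3:184279453-184280923) with MTF2 peaks of both replicates, 526 bp from H3K27me3. PLAU, which encodes urokinase, had a peak of 88.3, and VEGFC, a growth factor of lymphatic vessels, had 57.5. Of 16 genes named by the study and grouped here under invasion, 3 had an unmarked peak (HMGA2, EPHB3 and PLAU). The study names EPHB3 as a gene downregulated after PHF19L depletion, and HMGA2, PLAU and VEGFC as upregulated. It describes the PHF19L sites of EPHB3 as intergenic, whereas the EPHB3 peak given here held a start site. Of 20 hypoxia genes, 3 had an unmarked peak (VEGFC with NDRG1 and PGK1, at 131 and 93.5). Unmarked peaks were thus at 18.8% of the 16 and 15% of the 20, against 6.28% of all genes. A peak with H3K27me3 was at 10 of the 16 and 5 of the 20, against 7.99% of all genes. The 16 were named by the study, so their marked count is not independent of its ChIP-seq. The differences were not tested.

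Some markers of cell type had unmarked peaks, to be read beside the 6.28% of all protein-coding genes. Of 16 markers, of which PECAM1 was not matched in the annotation, 3 had an unmarked peak: KRT8, a keratin of simple epithelium (54.0), ZEB1, a repressor of epithelial genes (50.7), and CDH5, the cadherin of endothelium (72.3). CDH1, EPCAM, TMPRSS2 and NEUROD1 had a peak with H3K27me3. Of 8 genes of the androgen axis, HOXB13 had an unmarked peak, of 51.8, within its promoter window. As wider lists, 1 of 10 epithelial genes (KRT8) and 1 of 8 genes of other cell types (CDH5) had an unmarked peak. No RNA values were used, so expression of these markers was not examined.

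The authors' DiffBind tables, which hold regions that passed their thresholds over 2 replicates, took in few unmarked peaks. The table of PHF19 against input met 76 of them (0.847%) through 76 of its 1245 regions, against 1153 peaks with H3K27me3 (22.0%). In these 76 regions the authors' mean log2 concentration had a median of 5.59 in the ChIP and 4.04 in the input, against 6.42 and 4.82 over all regions of the table. The tables that compare shCTR with shPHF19L#4 cells met 100 unmarked peaks (1.11%) for EZH2, 1 (0.0111%) for SUZ12, 89 (0.992%) for H3K27me3 and 83 (0.925%) for MTF2. Of the peaks with H3K27me3 they met 2057 (39.2%), 553, 137 (2.61%) and 1997 (38.1%), so the H3K27me3 table took in few peaks of either kind. Their median log2 concentrations in shCTR and shPHF19L#4 cells were 5.51 and 6.79 for EZH2, 6.14 and 7.29 for H3K27me3, and 7.11 and 8.05 for MTF2, in regions that the authors had chosen by that difference. The headers of these tables name the column of the latter group both as input and as knockdown. It was read as knockdown, the name in the second header line. Over all regions of these tables the medians were 6.15 and 7.29, 5.90 and 7.01, and 7.50 and 8.34.

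Unmarked peaks were unevenly spread over the chromosomes, which was looked at after the data were seen. Per Mb of known sequence there were 3.14 over the genome, 7.42 on chromosome 17, 6.76 on chromosome 14 and 5.19 on chromosome 20. Chromosome 13 had 0.481, and chromosome X held 3 unmarked and 15 marked peaks in all. On these chromosomes peaks with H3K27me3 had 3.95, 3.90, 3.61 and 0.565 per Mb (17, 14, 20 and 13), against 1.83 over the genome. Other chromosomes differed, since chromosome 22 had 3.98 unmarked and 1.38 marked peaks per Mb, chromosome 18 had 3.84 and 1.71, and chromosome Y held 15 and 1 in all. The source of these densities was not tested.

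**Figure D5:**
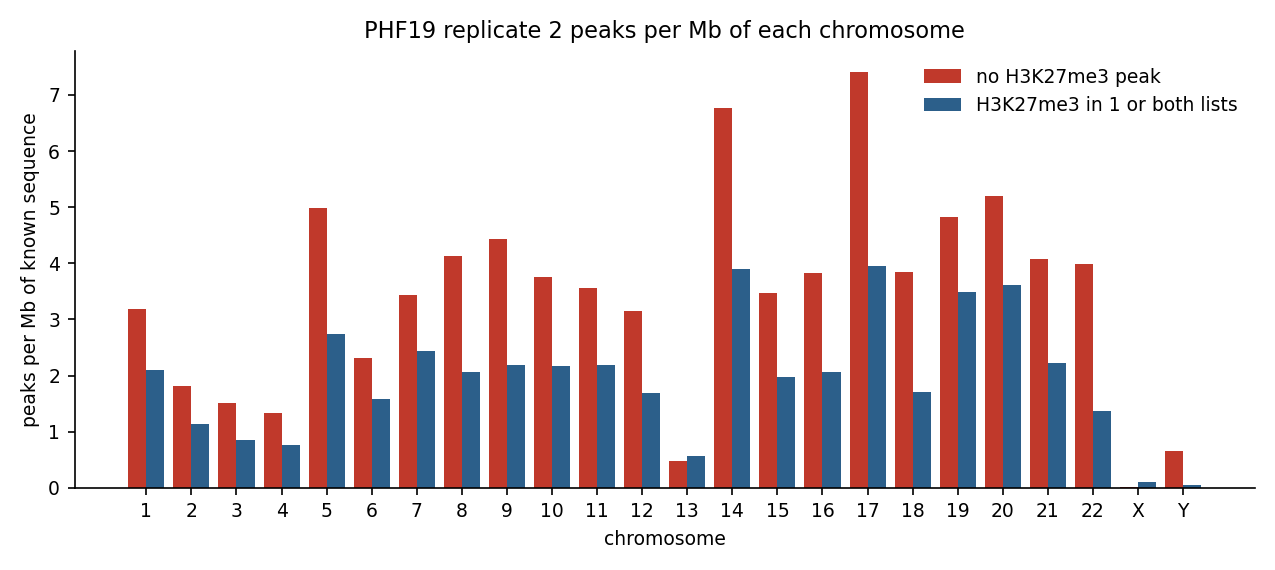
PHF19 replicate 2 peaks per Mb of known sequence (vertical axis) on each chromosome (horizontal axis), for unmarked peaks and for peaks with H3K27me3 in 1 or both lists. Unmarked peaks are densest on chromosomes 17 (7.42 per Mb) and 14 (6.76 per Mb).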

How the data were processed

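PHF19, EZH2, SUZ12, H3K27me3 and MTF2 ChIP-seq of DU145 cells was read from 14 peak lists and 5 DiffBind tables. Per the methods, the authors mapped reads with Bowtie to hg19, or to hg19 with dm3 for samples with fly spike-in, kept reads that mapped to a single place, and ran MACS on every replicate against its control with a shift size of 100 bp. The deposited score is the authors' MACS score per peak. The deposited PHF19 list of replicate 1 holds a count of tags per peak. The log2 values are the authors' mean concentrations per group from DiffBind. The fold, P value and FDR columns of these tables hold the authors' own comparisons and were not used. MTF2 lists of replicate 1 hold positions only. Groups came from the sample titles.

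Overlap was at least 1 bp. Genes came from GENCODE release 44 mapped to GRCh37, and bases from GRCh37. A promoter reached 2500 bp to each side of a start site. A peak was named by the protein-coding gene with the start site nearest its midpoint. Named were the 10 highest scores, the 5 highest with PHF19 replicate 1, with both MTF2 replicates, over a start site and outside promoters, up to 3 genes per gene list, genes named in the study's text, and the 3 peaks on each side of the rule. A few peaks that this rule picks are not shown. Cell type markers came from the design. JUND, MYC, MIR200B and the genes of the observations were named after their values were seen. The members and lists were chosen with earlier results of these data known, so no test was run and shares stand beside those of all peaks or genes. Intervals are at 95%, by Wilson for shares and by order statistics for medians.

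Alternatives counted H3K27me3, MTF2 or PHF19 replicate 1 where it covered 50% or more of a peak, took scores from 100 up, and also had each H3K27me3, MTF2, EZH2 and SUZ12 replicate left out, no H3K27me3 within 5000 bp, none in shPHF19L#4 cells either, autosomes, other promoter windows or start sites, and CpG in 300 bp. Overlaps, distances, CpG counts and motif search were tested on simulated data. Python 3.11.15, numpy 2.4.6, pandas 2.3.3, scipy 1.17.1, pysam 0.24.0, samtools 1.23.1 and matplotlib 3.10.9 were used. Depth is unknown, since the lists hold no read totals. Inputs, and EZH2 and SUZ12 of shPHF19L#4 cells, entered through the authors' DiffBind means alone. IgG, RNA-seq and PHF19 of shPHF19L#4 cells were not analysed here.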

Additional observations from a re-analysis of the deposited data

How the results depend on the processing

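Of 67 alternative values, 28 stayed within the 95% interval of the main value (within 1.5-fold for the number of peaks) and 39 moved. With a MACS score of at least 100, 446 unmarked peaks were left, with a median score of 120.2, 36.996% at promoters, 6.28% with a PHF19 replicate 1 peak, 2.47% with both MTF2 replicates, 3.59% with EZH2 or SUZ12, 34.5% with H3K27me3 in shPHF19L#4 cells and 1.87 CpG per 100 bp. Without H3K27me3 in shPHF19L#4 cells either, the values were 58.2, 11.8%, 0.193%, 0.0644%, 0.412% and 1.15 CpG. With no H3K27me3 within 5000 bp, both MTF2 replicates overlapped 0.104% and H3K27me3 in shPHF19L#4 cells 8.16%, which was 14.8% when H3K27me3 had to cover 50% of a peak.

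Leaving out a replicate gave a median score of 59.2, promoter shares of 14.2% to 15.3%, PHF19 replicate 1 shares of 0.609% to 0.839%, EZH2 or SUZ12 shares of 0.223% to 1.39%, H3K27me3 shares in shPHF19L#4 cells of 3.33% to 25% and CpG medians of 1.16 to 1.21. The share with both MTF2 replicates was 0.648% to 0.914% without an H3K27me3 replicate. With 1 MTF2 replicate it ranged from 0.368% to 19.6%, the higher with replicate 2 alone. Promoters held 9.90% with a window of 1000 bp, 12.8% by midpoint and 29.6% with start sites of all genes, and CpG was 1.33 in 300 bp. The causes were not tested.

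No paired analysis was possible because no result comes from a test, the lists hold called peaks and the DiffBind tables hold group means, with no value of a region in every sample. With 2 replicates per group an exact test could not go below p = 0.333. Depth is unknown, and lists of unequal length cannot be brought to the same depth.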

Other observations

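Unmarked peaks clustered near some genes, which was looked at after the data were seen. By nearest start site, CELF4, an RNA-binding protein of neurons, had 64 unmarked peaks over 1668 kb of chromosome 18, with a median score of 76.6, and 31 of them met an MTF2 peak of replicate 2 in shCTR cells. The homeobox genes IRX2 and IRX1 on chromosome 5 had 33 and 27, all outside promoters, and FHOD3, an actin-binding formin on chromosome 18, had 25. Peaks with H3K27me3 numbered 12 at CELF4 and 0 at IRX2, IRX1 and FHOD3. A total of 53 genes had 10 or more unmarked peaks and together took 750 of them, while 2871 genes had 1. In windows of 10 Mb the highest count was 196 unmarked peaks, at the start of chromosome 5. The median was 20 over 289 windows with an unmarked peak. The highest window held 272 PHF19 replicate 2 peaks in all, and unmarked peaks were 63.1% of the whole list.

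EZH2 and SUZ12 peaks over unmarked peaks were uneven as well. Of 31 unmarked peaks that met EZH2 or SUZ12 of replicate 1, 11 were on chromosome 14, 6 on chromosome 18 and 5 on chromosome 5. Chromosome 14 held 8.82 EZH2 and 8.30 SUZ12 peaks per Mb in replicate 1, against 0.721 and 0.533 over the genome, and 0.487 and 0.0793 in replicate 2. MTF2 peaks of shCTR cells were also denser there, at 7.10 per Mb in replicate 1, against 0.880 over the genome. In replicate 2 of MTF2 these values were 20.7 and 11.3. Within 1 Mb of a run of unknown bases of at least 50000 bp lay 12.3% of the unmarked peaks, 11.6% of the peaks with H3K27me3 and 10.2% of the known sequence, but 11 of the 50 unmarked peaks with the highest scores. The causes of these patterns were not tested.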
